A study of Mus musculus with 4 samples.

Results

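The enzymes and carriers that remove peroxides and superoxide and keep thiols reduced were followed through 35 genes, listed by name: 6 peroxiredoxins, sulfiredoxin, the thioredoxin system, glutathione peroxidases and transferases, catalase, superoxide dismutases, the enzymes that make and reduce glutathione, glutaredoxins, the NRF2 axis and ferritin. All 35 were found among the 54532 genes of the deposited tables, each under 1 Ensembl identifier. The cells were PMN-MDSC, suppressor cells of the neutrophil lineage that dampen T cell activity, from spleens of newborn mice of strain C57BL/6. In 2 libraries they had been kept for 5 days with NECA, an analogue of adenosine that activates its receptors. In the other 2 libraries they had received the solvent DMSO. RNA came from 300000 cells per condition, and the labels name no genetic change. Whether libraries of the same group stem from different mice or cultures is not stated, so every p-value below measures only the spread between these libraries, which may be technical.

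These genes form linked redox chains. Peroxiredoxins and glutathione peroxidases reduce peroxides, and are themselves reduced by thioredoxin or by glutathione, which thioredoxin reductases and glutathione reductase restore at the expense of NADPH. Many of the genes are known targets of NRF2, a transcription factor that the adaptor KEAP1 marks for degradation until oxidants or electrophiles release it. In neutrophils the system works beside the NADPH oxidase, whose superoxide kills microbes and, in suppressor cells, is one of the means by which T cells are restrained.

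Libraries held 15864120 to 18712625 counts. Of 16 neutrophil markers, 2 were higher with NECA, 0 were lower and 14 did not pass edgeR's test (11 higher and 1 lower at an unadjusted p under 0.05, 6 and 0 by DESeq2), and their summed level was 138140 and 138980 CPM (counts brought to a common library size, with TMM scaling) in NECA libraries 1 and 2, against 124200 and 129780 CPM in DMSO libraries 1 and 2. The 2 higher ones were Mmp8 and Mmp9, which encode matrix proteases of neutrophil granules. Neither passed with library size alone as the scale (edgeR adjusted p = 0.0837 and 0.0556). Their log2 fold changes were both 0.23. With single libraries left out, they ran from 0.19 to 0.27 for Mmp8 and from 0.19 to 0.27 for Mmp9. Of the 16 neutrophil markers, 13 had a log2 fold change above 0. The 3 below 0, Mpo (-1.19), Elane (-0.69) and Fcnb (-0.06), did not pass. Markers of other cells were detected in every library. Summed over 28 macrophage markers, their level was 1179 and 1050 CPM with NECA, against 1859 and 1706 CPM with DMSO, and 21 of the 28 were lower. Slc40a1, the iron exporter ferroportin, made up 499.9 and 509.8 CPM of that sum with NECA, against 539 and 549 CPM with DMSO, and did not pass (edgeR adjusted p = 0.31), while the median log2 fold change over the 28 was -1.53. Over 21 erythroid markers found in the tables it was 410.0 and 69.5 CPM with NECA, against 1288 and 577 CPM with DMSO, with 0 called by edgeR or DESeq2 and 17 lower at an unadjusted p under 0.05. B cell markers summed to 210.2 and 63.1 CPM with NECA, against 342 and 364 CPM with DMSO. Of these 18, 1 was lower by edgeR and 1 by DESeq2, and 15 were lower at an unadjusted p under 0.05. T and NK cell markers summed to 32.1 and 31.0 CPM with NECA, against 45.5 and 46.7 CPM with DMSO, with 0 of 9 called by edgeR or DESeq2 and 6 lower at an unadjusted p under 0.05. A fit with a library left out keeps a single library in that group. Its spread then comes from the other group alone, so its calls are not read here. None of the macrophage or erythroid markers found was at 0 in any library. Because these were bulk samples, fewer cells of a type and less RNA per cell cannot be told apart.

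Measured per length, the transcripts were dominated by a few genes. Prdx5, a peroxiredoxin of mitochondria, peroxisomes and cytosol, had 639 and 649 FPKM (fragments relative to the length of the gene and the size of the library) in NECA libraries 1 and 2, against 580 and 619 FPKM in DMSO libraries 1 and 2. Fth1, the ferritin heavy chain that oxidises and stores iron, had 551 and 547 FPKM with NECA, against 578 and 634 FPKM with DMSO. These were the highest levels of the 35. Next stood Gpx1, the main cytosolic glutathione peroxidase, at 397 and 420.2 FPKM with NECA, against 343 and 378 FPKM with DMSO, and Gsr, glutathione reductase, at 381 and 393 FPKM with NECA, against 332 and 350 FPKM with DMSO. Ftl1, the ferritin light chain, was the fifth, at 281 and 245 FPKM with NECA, against 292 and 299 FPKM with DMSO. The mean shares of the summed FPKM of all 35 genes were 19.6% for Prdx5, 18.2% for Fth1, 12.1% for Gpx1, 11.4% for Gsr and 8.80% for Ftl1. That sum was 3233 and 3223 FPKM with NECA and 3024 and 3238 FPKM with DMSO, so that the groups overlapped. At the low end, Srxn1, which encodes sulfiredoxin and repairs overoxidised peroxiredoxins, averaged 0.410 FPKM over the 4 libraries, and Gss, glutathione synthetase, 0.509 FPKM.

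**Figure D1:**
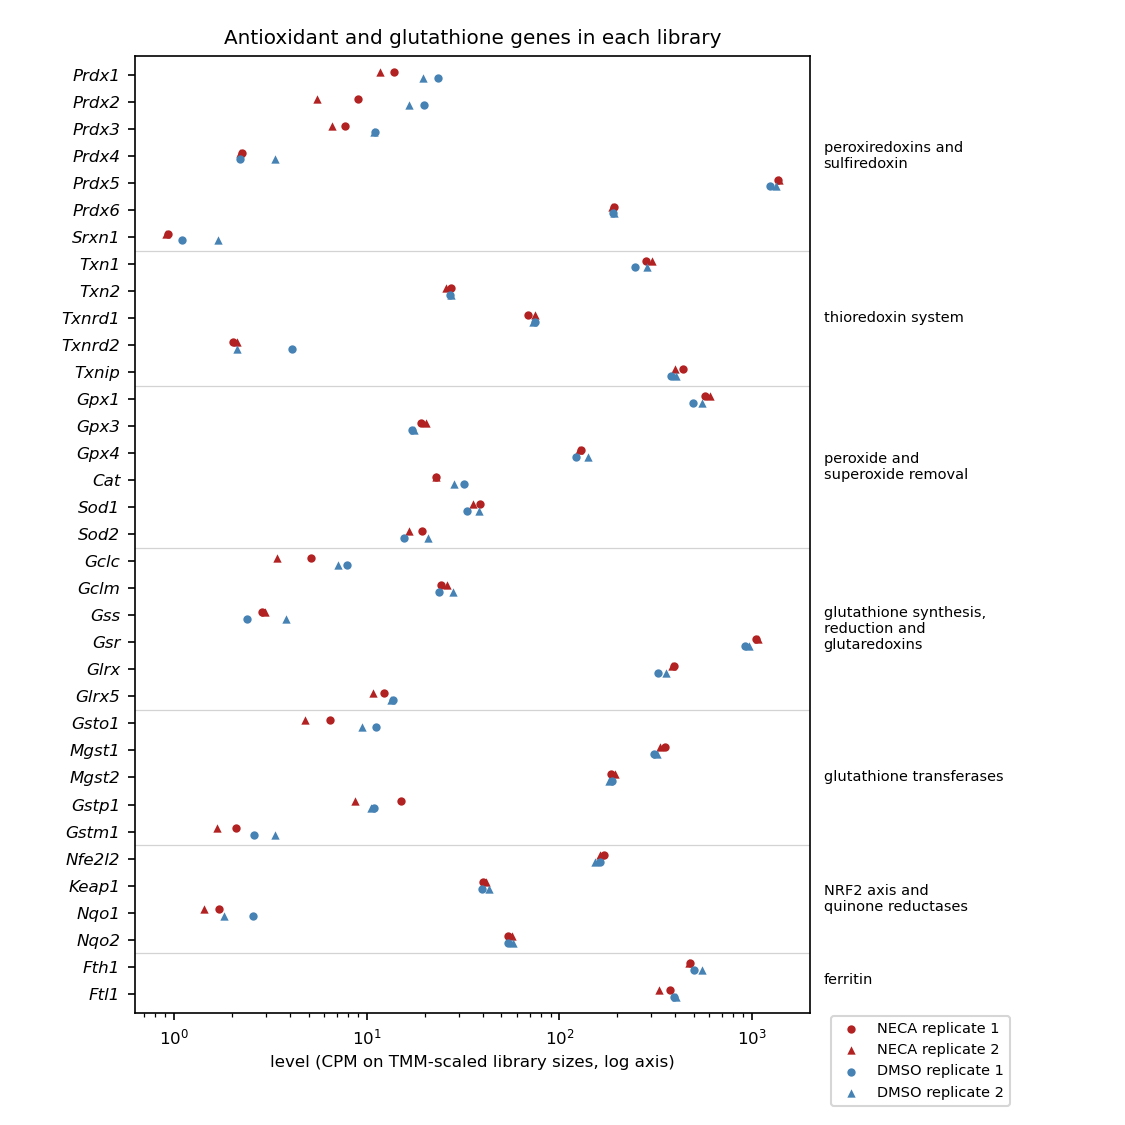
Level of each of the 35 genes in each library, in CPM on a log axis, with NECA libraries in red and DMSO libraries in blue, grouped by role. Levels run from 0.905 CPM for Srxn1 to 1385 CPM for Prdx5, and the separation of red from blue is widest for Prdx2.

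NECA was set against DMSO to ask what stimulation of adenosine receptors changes in these cells. Prdx1 and Prdx2, cytosolic peroxiredoxins that use thioredoxin, were lower with NECA, by 1.68-fold and 2.48-fold. No other gene of the 35 passed edgeR's quasi-likelihood test at an adjusted p of 0.05, so 0 were higher, 2 were lower and 33 did not pass. Over all 13083 genes tested, 0.352% were called higher and 0.978% lower, 46 and 128 genes, or 1.33% in either direction. With library size alone as the scale the calls were 21 higher and 217 lower over all genes, and the same counts of 0 higher and 2 lower among the 35. At an unadjusted p under 0.05, 3 of the 35 were higher and 8 lower, where 6.81% and 8.88% of all genes were, and DESeq2 called 1 higher and 2 lower. The median log2 fold change of the 35 was -0.04, and that of all genes tested was -0.01. All 35 passed the filter on low counts, and 23 had a log2 fold change below 0.

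**Figure D2:**
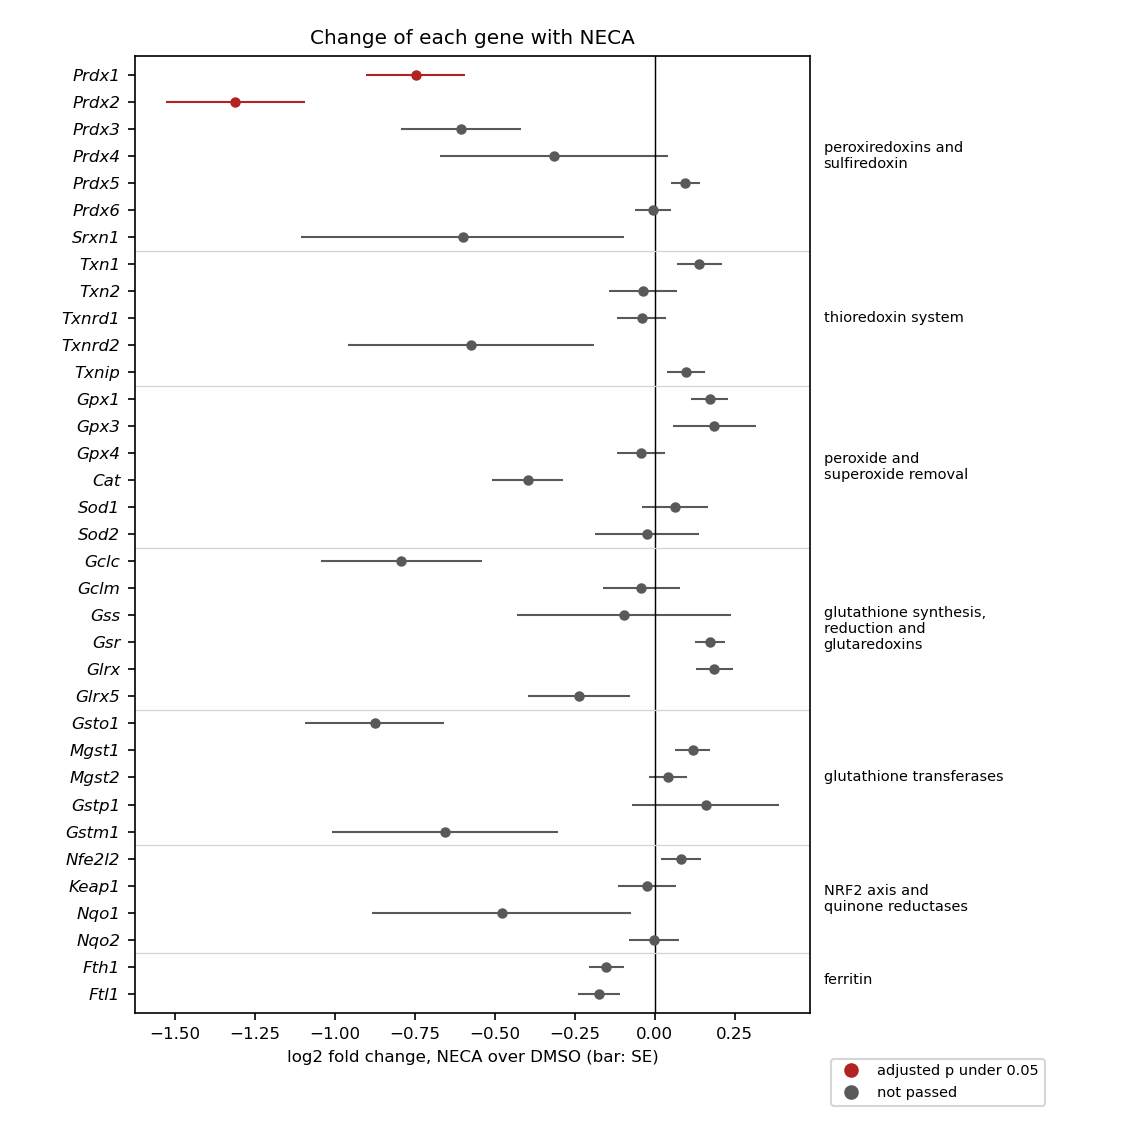
Log2 fold change of NECA over DMSO for each gene, with its SE as a bar and 2 libraries in each group, grouped by role. Prdx1 and Prdx2 (red) passed at an adjusted p under 0.05, and the values of the other 33 genes lie between -0.87 for Gsto1 and 0.19 for Glrx.

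Among the peroxiredoxins, Prdx2 had 9.06 and 5.49 CPM with NECA, against 19.8 and 16.6 CPM with DMSO. Prdx2 lies on chromosome 8, 84969587 to 84974834, on the plus strand (GRCm38). Every NECA library was below both DMSO libraries, and NECA library 2 was the lowest of the 4. The log2 fold change was -1.31 (SE 0.22, edgeR adjusted p = 0.014, lower in 2 of 2 NECA libraries). Prdx1 (chromosome 4, 116685544 to 116700822, plus strand) had 13.8 and 11.7 CPM with NECA, against 23.4 and 19.5 CPM with DMSO. Its groups did not overlap either, and DMSO library 1 was the highest of the 4. Its log2 fold change was -0.75 (SE 0.15, edgeR adjusted p = 0.0385). Without DMSO library 1 neither gene passed (edgeR adjusted p = 0.114 for Prdx2, at -1.18, and 0.198 for Prdx1, at -0.61, on the log2 scale), and without DMSO library 2 Prdx1 had an edgeR adjusted p of 0.0577.

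Macrophage and erythroid marker sums shared their lowest and their highest library with Prdx1 and Prdx2. In the order of NECA libraries 1 and 2 and DMSO libraries 1 and 2, the summed erythroid level was 410.0, 69.5, 1288 and 577 CPM, and the summed macrophage level 1179, 1050, 1859 and 1706 CPM. Both sums and both genes were lowest in NECA library 2 and highest in DMSO library 1. So were Prdx3, Cat, Gclc, Glrx5, Gsto1 and Nqo1, which did not pass. The B cell sum and the T and NK cell sum were also lowest in NECA library 2, but highest in DMSO library 2. How many genes outside the 35 share such an order was not counted. Prdx2 is known as an abundant protein of red cells, and macrophages are known to express Prdx1. The part of these cells in either change was not tested.

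**Figure D3:**
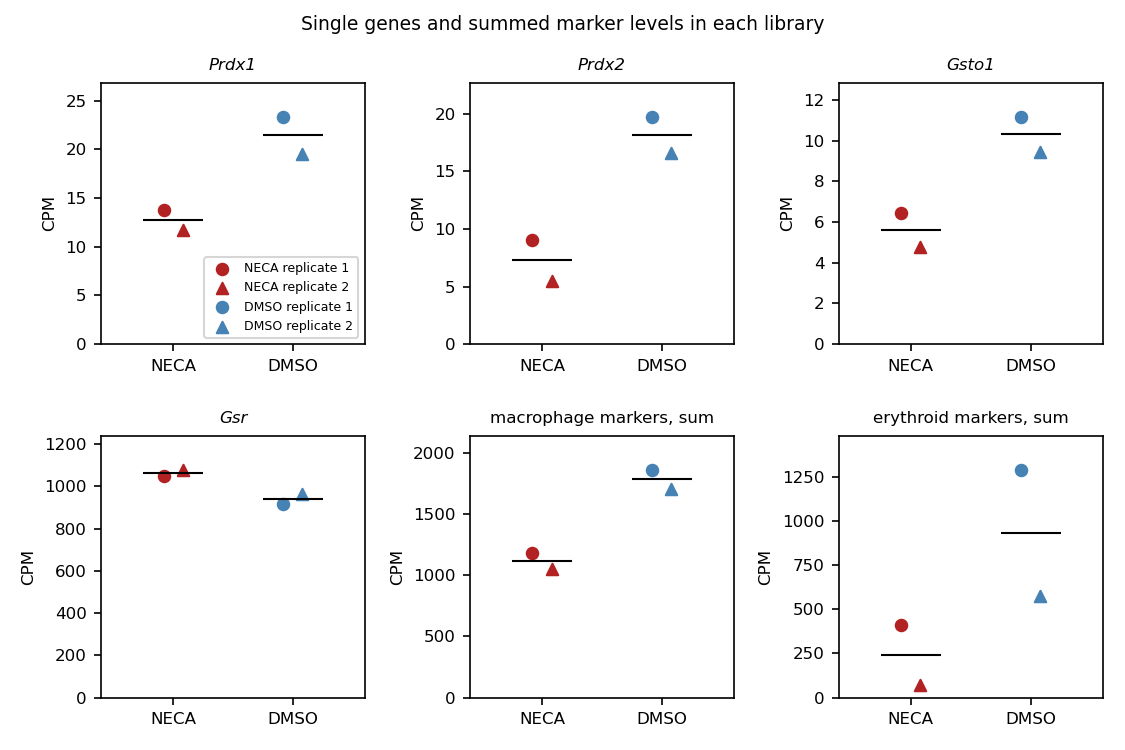
Levels in CPM of 4 genes and of the summed macrophage and erythroid markers in each library, with NECA at the left and DMSO at the right of each panel and the group mean as a line. The NECA libraries lie below the DMSO libraries for Prdx1, Prdx2, Gsto1 and both marker sums, and above them for Gsr.

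Prdx3, the mitochondrial one, had 7.74 and 6.59 CPM with NECA, against 11.0 and 10.9 CPM with DMSO, with groups that did not overlap, but did not pass (log2 fold change of -0.61, SE 0.19, edgeR adjusted p = 0.132). Prdx4, which works in the endoplasmic reticulum, stood at 2.25 and 2.20 CPM with NECA and 2.19 and 3.35 CPM with DMSO, with DMSO library 1 as low as the NECA libraries. Prdx5 had 1365 and 1385 CPM with NECA, against 1245 and 1328 CPM with DMSO (log2 fold change of 0.10, SE 0.05, edgeR adjusted p = 0.341). Prdx6, a peroxidase with a single reactive cysteine and a phospholipase activity, had 192 and 188 CPM with NECA and 189 and 192 CPM with DMSO, so that its groups overlapped within a narrow range. Of the summed FPKM of the 6 peroxiredoxins, Prdx5 held 92.2% and 92.8% with NECA, against 90.4% and 91.1% with DMSO. Prdx1 and Prdx2, the called genes, held 0.655% and 0.551% and 0.430% and 0.258% of it in NECA libraries 1 and 2, against 1.19% and 0.940% and 1.01% and 0.800% in DMSO libraries 1 and 2. Srxn1 had 17 and 14 counts with NECA, against 21 and 32 counts with DMSO, too few to detect a small difference at this depth (log2 fold change of -0.60, SE 0.50).

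Because NRF2 binds the antioxidant response element, its core TGACNNNGC was searched on both strands of the 250 bases before each start site in the RefSeq promoters (GRCm38.p6). Of the 35 genes 32 matched a promoter, and 6 of these (18.8%) held the core, which 11.5% of 27025 genes with a promoter did. The 6 were Prdx1, Gclm, Txnrd1, Sod1, Mgst1 and Nfe2l2. The called gene Prdx2 held no match in this window. Gsr, Prdx6 and Gclc had no promoter in this set and were not searched. Stretches from 4 of them that lie outside annotated exons are shown because they include Prdx1 beside 3 genes that did not pass, each read 5′ to 3′ on the minus strand, opposite to its gene, with the core in capitals.
Prdx1, chr4:116685450-116685490: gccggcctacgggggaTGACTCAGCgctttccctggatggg
Gclm, chr3:122245407-122245447: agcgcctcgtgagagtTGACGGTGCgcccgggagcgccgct
Txnrd1, chr10:82859098-82859138: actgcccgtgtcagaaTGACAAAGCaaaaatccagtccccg
Sod1, chr16:90220690-90220730: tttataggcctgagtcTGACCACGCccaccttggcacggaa
The core ended 125 bases upstream of the start site in Prdx1, 126 in Gclm, 84 in Txnrd1 and 48 in Sod1. Log2 fold changes of these 4 genes were -0.75, -0.04, -0.04 and 0.06, in the same order, and those of Mgst1 and Nfe2l2 were 0.12 and 0.08. Differences between these genes were not tested.

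In the thioredoxin system 0 of 5 genes passed edgeR's test, with 0 at an unadjusted p under 0.05 and 0 by DESeq2. Txn1, cytosolic thioredoxin, had 281 and 304 CPM with NECA and 247 and 284 CPM with DMSO (log2 fold change of 0.14, SE 0.07, edgeR adjusted p = 0.378), and its groups overlapped. Txnrd1, the cytosolic reductase, stood at 68.5 and 75.0 CPM with NECA and 74.6 and 73.0 CPM with DMSO. Txn2, mitochondrial thioredoxin, had 27.4 and 25.7 CPM with NECA and 27.1 and 27.3 CPM with DMSO. Both genes varied as much within groups as between them. Txnrd2, its mitochondrial reductase, had 4.08 CPM in DMSO library 1 and 2.03 to 2.13 CPM in the other 3 libraries, so its log2 fold change of -0.57 (SE 0.38) rested on that library and was -0.02 without it. Txnip, which binds and inhibits thioredoxin and limits glucose uptake, had 439 and 397 CPM with NECA and 381 and 401 CPM with DMSO (log2 fold change of 0.10, SE 0.06).

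Among the enzymes that remove peroxides and superoxide 0 of 6 passed edgeR's test, with 1 higher and 1 lower at an unadjusted p under 0.05 and 0 by DESeq2. Gpx1 had 571 and 604 CPM with NECA, against 496 and 547 CPM with DMSO. Both NECA libraries were above both DMSO libraries, with a log2 fold change of 0.17 (SE 0.06, edgeR adjusted p = 0.166). With single libraries left out, Gpx1 ran from 0.11 without DMSO library 1 to 0.25 without DMSO library 2. With library size alone it stood at 0.10 (edgeR adjusted p = 0.44). Gpx3, the secreted glutathione peroxidase, had 19.2 and 20.4 CPM with NECA, against 17.1 and 17.7 CPM with DMSO, and did not pass (log2 fold change of 0.19, SE 0.13). Gpx4, which reduces lipid hydroperoxides and restrains ferroptosis, stood at 130 and 126 CPM with NECA and 122 and 142 CPM with DMSO. Its groups overlapped. Cat, catalase, had 23.0 and 22.9 CPM with NECA, against 32.0 and 28.5 CPM with DMSO, with groups apart and a log2 fold change of -0.40 (SE 0.11, edgeR adjusted p = 0.102). The superoxide dismutases did not separate: Sod1, of the cytosol, had 38.8 and 35.7 CPM with NECA and 33.0 and 38.5 CPM with DMSO, and Sod2, of the mitochondria, 19.3 and 16.5 CPM with NECA and 15.6 and 20.8 CPM with DMSO.

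Of the 6 genes of glutathione synthesis and reduction and the glutaredoxins, 0 passed edgeR's test, with 2 higher and 1 lower at an unadjusted p under 0.05 and 1 higher by DESeq2. Glutathione is made by glutamate-cysteine ligase, of which Gclc is the catalytic and Gclm the modifier subunit, and by glutathione synthetase. Gclc had 5.16 and 3.42 CPM with NECA, against 7.89 and 7.06 CPM with DMSO. Its groups did not overlap, but its log2 fold change of -0.79 (SE 0.25) did not pass (edgeR adjusted p = 0.144). With single libraries left out, Gclc ran from -1.12 without NECA library 1 to -0.53 without NECA library 2. Gclm stood at 24.2 and 26.2 CPM with NECA and 23.8 and 27.9 CPM with DMSO, with groups that overlapped, and so did those of Gss, at 2.86 and 2.97 CPM with NECA and 2.40 and 3.82 CPM with DMSO. The subunit genes thus differed in value, -0.79 for Gclc and -0.04 for Gclm, a difference between genes that was not tested. Gsr, which returns oxidised glutathione to its reduced form, had 1047 and 1078 CPM with NECA, against 918 and 966 CPM with DMSO. Both NECA libraries were the higher ones, by a log2 fold change of 0.17 (SE 0.05, edgeR adjusted p = 0.0923), and Gsr passed with DESeq2 (adjusted p = 0.015). Gsr ran from 0.14 without DMSO library 1 to 0.22 without DMSO library 2. With library size alone it stood at 0.10 (edgeR adjusted p = 0.321). Glrx, the cytosolic glutaredoxin that removes glutathione from proteins, had 393 and 383 CPM with NECA, against 326 and 356 CPM with DMSO, with groups apart (log2 fold change of 0.19, SE 0.06, edgeR adjusted p = 0.131). Glrx5, which serves iron-sulfur cluster assembly in mitochondria, stood at 12.2 and 10.8 CPM with NECA, against 13.7 and 13.4 CPM with DMSO (log2 fold change of -0.24, SE 0.16).

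Of the 5 glutathione transferases 0 passed edgeR's test, with 1 lower at an unadjusted p under 0.05 and 0 by DESeq2. Gsto1, an omega-class transferase with thiol transferase activity, had 6.43 and 4.78 CPM with NECA, against 11.2 and 9.45 CPM with DMSO. The groups were apart, and its log2 fold change of -0.87 (SE 0.22) was the lowest of the genes that did not pass (edgeR adjusted p = 0.0768). The value of Gsto1 was -1.11 without NECA library 1, -0.68 without NECA library 2, -0.74 without DMSO library 1 and -0.99 without DMSO library 2. Mgst1, a microsomal transferase, had 352 and 334 CPM with NECA, against 310.0 and 321 CPM with DMSO (log2 fold change of 0.12, SE 0.06, edgeR adjusted p = 0.324), and Mgst2, which can also act in leukotriene synthesis, 186 and 194 CPM with NECA and 188 and 181 CPM with DMSO. Mgst1 and Mgst2 together held most of the summed FPKM of these 5 genes: Mgst1 70.0% and 71.1% with NECA and 68.0% and 69.6% with DMSO, and Mgst2 20.1% and 22.5% with NECA and 22.4% and 21.3% with DMSO. Gstp1, a pi-class transferase, had 15.1 CPM in NECA library 1 and 8.66 CPM in NECA library 2, outside the DMSO values of 10.9 and 10.5 CPM on either side. Gstm1, a mu-class transferase, had 38 and 26 counts with NECA, against 50 and 63 counts with DMSO (log2 fold change of -0.65, SE 0.35, edgeR adjusted p = 0.409).

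Of the 4 genes of the NRF2 axis and the quinone reductases, 0 passed edgeR's test, 0 had an unadjusted p under 0.05 and 0 passed with DESeq2. Nfe2l2, which encodes NRF2, had 171 and 163 CPM with NECA, against 163 and 153 CPM with DMSO, with NECA library 2 and DMSO library 1 almost level (log2 fold change of 0.08, SE 0.06, edgeR adjusted p = 0.6). Keap1 stood at 40.0 and 41.4 CPM with NECA and 39.6 and 43.2 CPM with DMSO, and its groups overlapped. Nqo1, a quinone reductase used widely as a readout of NRF2, was low, at 31 and 22 counts with NECA, against 49 and 34 counts with DMSO (log2 fold change of -0.48, SE 0.41). Nqo2, a related reductase, had 54.4 and 56.7 CPM with NECA and 53.9 and 57.3 CPM with DMSO. The ferritin subunits both lay lower with NECA in every library, without passing: Fth1 at 477 and 472 CPM with NECA, against 502 and 551 CPM with DMSO (log2 fold change of -0.15, SE 0.06, edgeR adjusted p = 0.206), and Ftl1 at 376 and 328 CPM with NECA, against 392 and 403 CPM with DMSO (log2 fold change of -0.17, SE 0.07, edgeR adjusted p = 0.213). Ftl1 stood at -0.28 without NECA library 1, -0.079 without NECA library 2, -0.19 without DMSO library 1 and -0.15 without DMSO library 2. Fth1 ran from -0.21 without DMSO library 1 to -0.078 without DMSO library 2. Fth1 held 66.2% and 69.0% of the summed FPKM of the subunits with NECA, against 66.5% and 67.9% with DMSO.

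Values differed with level among the 35 genes. Of the 13 genes whose mean reached 100 CPM, 9 had a log2 fold change above 0 (median 0.10), among them Prdx5, Gsr, Gpx1, Glrx and Txn1, and the 4 below 0 were Prdx6, Gpx4, Fth1 and Ftl1. Of the 18 genes under 30 CPM, 16 were below 0 (median -0.44), and Gpx3 and Gstp1 were the exceptions. With library size alone as the scale, Mgst2 (-0.031), among the abundant genes, also lay below 0. The limits of 30 and 100 CPM were chosen after the values were seen. All genes tested showed a split in the same direction: 18.3% of 1933 genes of at least 100 CPM were below 0 (median 0.08), and 61.8% of 8416 genes under 30 CPM (median -0.09). Over the 35, the NECA libraries were both below the DMSO libraries for 12 genes and both above for 7, while 24.3% and 22.4% of all genes did the same. From 100 CPM, both were above for 46.2% of the 13 genes and 56.6% of all genes, and both below for 15.4% and 6.41%. Under 30 CPM, both were below for 55.6% of the 18 genes and 30.7% of all genes, and both above for 5.56% and 13.7%. Macrophage and erythroid marker sums were lower with NECA, as given above, and their part in the values of the scarcer genes was not tested.

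**Figure D4:**
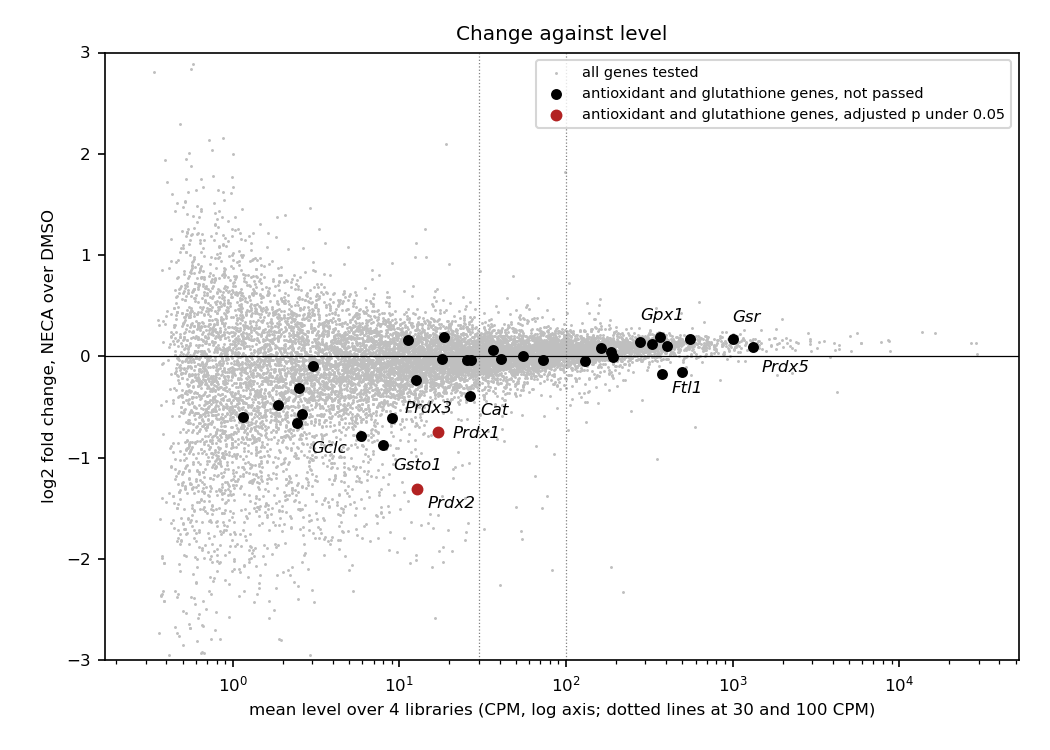
Log2 fold change of NECA over DMSO against mean level in CPM (log axis) for all genes tested (grey) and the 35 genes (black, or red where the adjusted p was under 0.05), with dotted lines at 30 and 100 CPM. 25 genes of the whole set fall outside the plotted range of 3 log2 units either way. Genes such as Prdx5, Gsr and Gpx1 sit just above 0 at the right, and Prdx1, Prdx2, Gsto1 and Gclc sit below 0 at the left.

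Of 103 other genes of NADPH supply, cystine and iron handling, glutathione use, selenoproteins and NRF2 control, 87 were tested, of which 0 were higher and 2 lower by edgeR's test (12 and 16 at an unadjusted p under 0.05, 1 and 2 by DESeq2), with a median log2 fold change of -0.03. The lower ones were Hmox1, haem oxygenase, and Bach2, a repressor related to Bach1. Hmox1 had 44.3 and 30.7 CPM with NECA, against 116 and 96.6 CPM with DMSO, with a log2 fold change of -1.50 (SE 0.14, edgeR adjusted p = 0.000344). It is itself one of the macrophage markers. Bach2 had 0.714 and 0.194 CPM with NECA, against 2.72 and 2.97 CPM with DMSO, with a log2 fold change of -2.59 (SE 0.54, edgeR adjusted p = 0.0417), and B cells, whose summed marker level is given above, are known to express it. The part of macrophages and B cells in these values was not tested. Bach2 was measured on few counts, 13 and 3 with NECA, against 52 and 56 with DMSO. Its log2 fold change ran from -3.83 without NECA library 1 to -1.98 without NECA library 2.

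Counts of several genes are uncertain because the sources used here do not give the use of strand or of multi-mapped reads. Of the 35, 15 overlap another annotated gene and 8 have a near-identical annotated copy in the tables. Prdx2 shares 351 bases with Junb, on the opposite strand, which had 138 and 145 CPM with NECA and 144 and 182 CPM with DMSO. Gsto1 lies opposite Cfap43, at 311 and 297 CPM with NECA and 287 and 272 CPM with DMSO, and Nqo2 opposite Serpinb6a. Summed with its 2 copies, which held 0 to 9 counts in a library, Prdx1 stood at -0.76 (edgeR adjusted p = 0.0365), and Ftl1 with its 5 copies at -0.17 (0.221). The copy of Gpx4 held more, 523 and 354 counts with NECA and 442 and 404 with DMSO. Gpx4 itself had 2359 and 1954 counts with NECA and 2335 and 2666 with DMSO. Summed with this copy, Gpx4 stood at -0.0031 (edgeR adjusted p = 0.991), and alone at -0.043 (0.856). The single copies of Prdx2 and Txn1 held 0 counts in all 4 libraries, so summing them could not change the counts of those genes.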

How the data were processed

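RNA of 4 libraries (2 with NECA, 2 with DMSO) was analysed from the deposited tables, which give whole-number read counts and FPKM values per Ensembl gene, per the file headers. The submitters' processing notes name the tools HISAT, StringTie and edgeR (versions not given) and, as builds, mm10 and GRCm38. The counting program, strand use and multi-mapping were not given in the sources used here. FPKM values were used as deposited, without TMM scaling added, to describe levels and shares of genes in each library. No test was run on them. Counts were filtered with filterByExpr (minimum count 10), scaled by TMM and tested with edgeR 4.0.16 (glmQLFit, glmQLFTest) in R 4.3.3, NECA against DMSO, with 2 residual degrees of freedom, without a block, and Benjamini-Hochberg adjustment over all 13083 genes tested. The SE is the log2 fold change over the square root of F. Alternatives were RLE scaling, library size alone, no filter, DESeq2 1.42.0, a replicate block, leaving out each library and adding near-identical copies (blastn 2.17.0, at least 95% identity over 200 bases). The procedure was also run on simulated counts with planted changes, and its power and error rate are not given here. Replicates were not copies (NECA 5.38 and DMSO 6.78 in chi-square per degree of freedom). Coordinates are from GENCODE M21. The 35 genes, the other lists and the tests were chosen with earlier results of these data known. All 35 are named. Values per library are given for all, and genes of the wider list are named where the adjusted p was under 0.05.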

Additional observations from a re-analysis of the deposited data

How the results depend on the processing

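The count of the 35 genes called was 0 higher and 2 lower, and 3 higher and 6 lower without a filter on low counts, and 1 higher and 2 lower with DESeq2. It ran from 0 to 2 higher and from 0 to 5 lower when single libraries were left out. Their median log2 fold change was -0.11 with library size alone, and -0.080 to 0.023 when single libraries were left out. Over all genes, 21 were higher and 217 lower with library size alone, 285 and 590 without a filter, 151 and 134 with DESeq2, and 8 to 227 and 45 to 594 with a library left out. Of the wider list, 4 were lower with library size alone, 3 higher and 9 lower without a filter, and 1 higher with DESeq2. With the replicate number as a block, 123 genes were higher and 298 lower, 3 of the 35 were lower (Gsto1 passed, adjusted p = 0.0342) and 2 of the wider list were higher and 4 lower. With this block Prdx1 and Prdx2 passed at edgeR adjusted p = 0.00883 and 0.000459. Deviations of libraries with the same number had a correlation of 0.02 across 13083 genes, with 2 pairs. A value over all genes cannot exclude a pairing that touches some of them. Prdx1, Prdx2 and the macrophage and erythroid sums were lower in library 2 than in library 1 of both groups. The labels do not say what the number marks, so the main fit had no block. Of the 33 genes that did not pass, some turned their sign. With DESeq2, Prdx6 stood at 0.0021 and Nqo2 at 0.0063, with RLE scaling Nqo2 at 0.0029, and with library size alone Sod1 at -0.0096 and Mgst2 at -0.031. With a library left out, values ran from -0.58 to 0.023 for Prdx4, -0.021 to 0.010 for Prdx6, -0.085 to 0.0074 for Txn2, -0.11 to 0.024 for Txnrd1, -0.14 to 0.072 for Gpx4, -0.038 to 0.18 for Sod1, -0.21 to 0.20 for Sod2, -0.15 to 0.082 for Gclm, -0.39 to 0.28 for Gss, -0.30 to 0.50 for Gstp1, -0.080 to 0.044 for Keap1 and -0.040 to 0.047 for Nqo2. In each case the cause was not tested.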
